A study of Homo sapiens with 30 samples.

Results

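The genes described here encode the respiratory chain and ATP synthase, the machinery of oxidative phosphorylation in the inner mitochondrial membrane. They number 92 of the 61471 gene symbols listed for U87 and U251, a pair of established cell lines from human glioblastoma. Complex I takes electrons from NADH and complex II from succinate, both pass them to ubiquinone, and complex III and cytochrome c carry them on to complex IV, which reduces oxygen. Complexes I, III and IV pump protons, and complex V, the ATP synthase, uses the gradient to make ATP. Most subunits are encoded in the nucleus and imported, whereas the core membrane subunits of every complex but complex II come from mitochondrial DNA, so that a working chain needs both genomes. Members were chosen by symbol alone (the NDUF, SDH, UQCR, COX and ATP5 subunit families, CYC1 and the mitochondrial MT- genes), with pseudogenes left out and a mean of at least 5 TPM in either line. TPM scales the reads of a gene by transcript length and by the total of the library. Of 218 matching symbols 118 were pseudogenes and 8 lay under the minimum, among them the tissue isoforms COX4I2, COX6A2, COX6B2, COX7A1, COX7B2 and COX8C, and MT-ATP8, which is listed at 0 in every library. The lowest member was NDUFA4L2, with means of 9.49 TPM in U87 and 11.7 TPM in U251, and the gene nearest below the minimum was COX7A1, at 1.47 and 0.353 TPM. In Untreated cells NDUFA4L2 averaged 4.07 TPM in U87 and 3.57 TPM in U251, under the minimum, so it passed through libraries of other groups. The 80 nuclear members hold 36 subunits of complex I, 4 of complex II, 10 of complex III, 13 of complex IV and 17 of complex V, and the 12 mitochondrial members hold 7, 0, 1, 3 and 1. NDUFA4 and its relative NDUFA4L2 were counted with complex IV, of which NDUFA4 is a subunit.

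RNA came from wild-type cells of both lines, sequenced without IFN-γ (Untreated), after 3, 14 or 28 days with it (D3, D14 and D28), and after 14 days with it and 14 days without it (D28WO). IFN-γ is the interferon of activated T and NK cells. The lines are established glioma lines whose identity was not checked again by the study, and each stands for itself and not for a tumor. Each group held 3 libraries, except that D3 and D14 of U87 held 2 here, since a column name that occurs 2 times among the U87 values could not be tied to 1 sample. This left 13 libraries of U87 and 15 of U251. The labels and the study's methods do not give the same dose of IFN-γ or the same day for Untreated cells, and neither was a term in the fit. Both place the Untreated cells early, and these were the reference for D14, D28 and D28WO. No untreated cells were sampled at those later days, so IFN-γ and time in culture cannot be told apart there. The 2 tables were normalized separately, so the lines were not compared in a test.

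Changes are differences of log2(TPM + 1), tested with limma across all genes of a line, with Benjamini-Hochberg adjustment over 22918 genes in U87 and 23667 in U251, and a member is said to have fallen or risen where its adjusted p was under 0.05. All 92 members passed the filter on low values. TPM keeps no sequencing depth, so the precision rests on the spread between libraries alone. The log2 scale with 1 TPM added understates changes of low genes such as NDUFA4L2. In bulk RNA, fewer cells with a transcript and less of it per cell cannot be told apart.

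The IFN-γ-responsive genes IRF1, B2M, PSMB9 and GBP1 were read before the members, because they bear on the labels. In U87 all 4 rose in D3, D28 and D28WO and 0 of 4 passed the test in D14. IRF1, a transcription factor that IFN-γ induces, stood at 136, 130.1 and 134 TPM in the Untreated libraries, 134 and 109.8 TPM in those labelled D14, 539, 457 and 443 TPM in D28 and 527, 545 and 457 TPM in those labelled D28WO. Thus for IRF1 the U87 libraries labelled D14 lay within or below the Untreated range, and the libraries labelled D28WO, which by their label had no IFN-γ for 14 days, overlapped with D28. PSMB9 also overlapped between D28WO and D28, whereas B2M was higher in D28WO, from 2000, 2328 and 2658 to 3344, 3169 and 2891 TPM (log2 fold change 0.44, adjusted p = 0.0147). GBP1 was at 253, 256 and 244 TPM in D28 and 213, 219 and 232 TPM in D28WO, all lower without passing the test (log2 fold change -0.18, adjusted p = 0.204). In U251 all 4 genes rose in every group, with IRF1 at 137, 142 and 145 TPM in Untreated, 288, 321 and 292 TPM in D14, 577, 559 and 674 TPM in D28 and 609, 663 and 588 TPM in D28WO. Whether the U87 columns carry the right labels or the response took this course was not tested. Every value below for D14 and D28WO therefore holds for the libraries labelled so.

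Of the glioma markers, VIM was at 1459, 1214 and 1249 TPM in Untreated U87 and 1143, 1161 and 1119 TPM in Untreated U251, SOX2 was at most 0.411 TPM in U87 and at 159, 158 and 160.2 TPM in Untreated U251, and the leukocyte marker PTPRC did not exceed 1.47 TPM in any library. Another leukocyte marker, CD14, rose in all 4 groups of U251, from 0.191, 1.26 and 0.253 TPM in Untreated to 5.75, 3.11 and 4.66 TPM at D3 (log2 fold change 1.85, adjusted p = 0.000131) and 2.07, 2.47 and 2.28 TPM in D28WO (log2 fold change 1.12, adjusted p = 0.00824), while CD3E was at 0 in the Untreated and D28WO libraries of both lines. GFAP, an astrocytic marker, rose in U87 from 5.30, 6.90 and 2.33 TPM in Untreated to 13.9, 11.8 and 16.8 TPM in D28WO (log2 fold change 1.45, adjusted p = 0.00801), and also at D28 (log2 fold change 1.39, adjusted p = 0.02). In U251 it fell in every group and went from 1309, 1246 and 1219 TPM in Untreated to 574, 574 and 570.2 TPM in D28WO. Of the endothelial and epithelial markers, CDH5 stood at 31.0, 26.6 and 25.2 TPM in Untreated and 3.56, 1.87 and 1.30 TPM in D28WO of U251, while PECAM1 stayed at or under 2.38 TPM in both lines. EPCAM, an epithelial adhesion protein, fell in U87 from 9.29, 3.14 and 6.55 TPM in Untreated to 1.03, 1.38 and 1.21 TPM in D28WO (log2 fold change -1.64, adjusted p = 0.00255). KRT18, an epithelial keratin, was lower at D3 of U251 (log2 fold change -0.80, adjusted p = 0.000371). In D28WO of U87 OLIG2, a glial transcription factor, rose and NES, a filament protein of neural progenitors, fell (log2 fold changes 1.78 and -0.81, adjusted p = 0.00217 and 0.000406). In U251 NES fell in all 4 groups, by 1.38 at D3 and 1.21 in D28WO on the log2 scale (adjusted p = 2.29e-09 and 1.34e-08), as did S100B and CD44, by 1.79 and 0.81 in D28WO (adjusted p = 7.36e-07 and 8.55e-06). VIM fell in D3, D28 and D28WO of U251 and in D3 and D28WO of U87, with log2 fold changes in D28WO of -0.51 (adjusted p = 0.000105) and -0.35 (adjusted p = 0.00174). The part of these marker changes in the results was not tested.

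In Untreated U87 cells the nuclear members had a median of 204 TPM, from 4.07 TPM for NDUFA4L2 to 561 TPM for ATP5PB, a subunit of the peripheral stalk of ATP synthase. In Untreated U251 cells the median was 168 TPM, from 3.57 TPM for NDUFA4L2 to 372 TPM for COX7A2, a complex IV subunit. NDUFA4L2, UQCRHL, ATP5F1E and UQCRFS1 were the 4 lowest nuclear members in both lines. The mitochondrial members spanned 362 (MT-ND3) to 1117 TPM (MT-ND4L) in U87, with a median of 523 TPM, and 321 (MT-CYB) to 804 TPM (MT-ND4L) in U251, with a median of 433 TPM. Some levels are uncertain because transcripts share sequence. UQCRHL is a near copy of UQCRH, MT-ND4L overlaps MT-ND4 and MT-ATP8 overlaps MT-ATP6, and MT-ND6 lies on the strand opposite to MT-ND5, with no statement on whether counting used the strand.

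Promoters of the nuclear members were read for short motifs of factors known for genes of this class, and for the element that IFN-γ signalling uses. RefSeq promoter windows of 300 bases (250 before and 50 after the start, GRCh38.p14) were matched by symbol for 64 of the 80 nuclear members and for 27305 genes in all, 1 window a gene, and both strands were searched for short motifs. The core of NRF1, a regulator of respiratory genes (GCATGCG), stood in the windows of 13 of 64 (20.3%), against 4.13% of all. The ETS core that GABP binds (CCGGAAG) stood in 20 of 64 (31.2%), against 10.7% of all, and the YY1 core (AAGATGG) in 16 of 64 (25%), against 6.06% of all. At least 1 of these 3 was found in 37 of 64 windows (57.8%), against 18.9% of all windows. The SP1 box (GGGCGG) stood in 40 of 64 (62.5%), against 44.6% of all. For the CCAAT box (CCAAT) the count was 21 of 64 (32.8%), against 35.7% of all, for the TATA box (TATAAA) 6 of 64 (9.38%), against 12% of all, and for the GAS element of the interferon response (TTCNNNGAA) 6 of 64 (9.38%), against 7.88% of all. No pair of these motifs overlapped in the windows shown. A match is a description of letters and not a bound site. The 250 bases before the start are shown for 3 members whose window holds no annotated exon there and whose values are given below, COX6B1 and COX8A of complex IV and SDHB of complex II, each 5′ to 3′ in the direction of transcription with motif letters in capitals.
COX6B1 (chr19:35648073-35648322, plus strand): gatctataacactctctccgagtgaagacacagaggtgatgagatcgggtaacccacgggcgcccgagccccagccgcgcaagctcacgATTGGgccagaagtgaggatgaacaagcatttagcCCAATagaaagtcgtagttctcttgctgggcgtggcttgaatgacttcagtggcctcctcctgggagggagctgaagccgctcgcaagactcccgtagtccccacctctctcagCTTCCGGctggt
COX8A (chr11:63974370-63974619, plus strand): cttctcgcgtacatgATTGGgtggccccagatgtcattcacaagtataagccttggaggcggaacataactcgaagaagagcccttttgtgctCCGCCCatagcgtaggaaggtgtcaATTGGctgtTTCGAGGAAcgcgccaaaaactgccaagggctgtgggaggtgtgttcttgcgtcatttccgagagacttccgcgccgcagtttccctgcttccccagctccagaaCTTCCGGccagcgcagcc
SDHB (chr1:17054033-17054282, minus strand): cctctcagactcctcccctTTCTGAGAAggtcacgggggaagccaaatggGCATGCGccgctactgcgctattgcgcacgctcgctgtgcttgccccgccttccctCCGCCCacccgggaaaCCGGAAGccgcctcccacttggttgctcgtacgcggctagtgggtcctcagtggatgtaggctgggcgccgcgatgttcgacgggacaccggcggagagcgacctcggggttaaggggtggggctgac
The capitals mark in COX6B1 the CCAAT box on the reverse and on the forward strand, starting 161 and 126 bases before the start, and the ETS core 12 bases before it. In COX8A they mark the CCAAT box at 235 and 132 bases, the SP1 box at 157, the GAS element at 123 and the ETS core at 18 bases before the start. In SDHB they mark the GAS element at 231, the NRF1 core at 200, the SP1 box at 144 and the ETS core at 128 bases before the start.

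The first question was how the members as a whole differed from Untreated in the other groups. In U87 at D3, 26 of 92 members fell and 0 rose, beside 4.28% of all genes lower and 12.4% higher. In the U87 libraries labelled D14, 2 fell (SDHC and ATP5PB) and 0 rose, beside 1.02% and 4.14% of all genes. At D28 40 fell and 0 rose, beside 6.55% and 17.2%. The U87 libraries labelled D28WO had the most calls, with 69 members lower and 1 higher (NDUFA4L2), beside 13.4% and 28.6% of all genes. In U251 37 members fell and 2 rose (ATP5F1B and NDUFA4L2) at D3, beside 16% and 24.9% of all genes. At D14 of U251 5 fell and 0 rose, beside 7.31% and 13.8%, fewer than that share of 92 genes. At D28 of U251 30 fell and 2 rose (NDUFA9 and NDUFA4L2), beside 14.7% and 25.9%. In the U251 libraries labelled D28WO 29 fell and 3 rose (CYC1, NDUFS3 and NDUFA4L2), beside 13.4% and 14.3%.

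The changes were small. Past an absolute log2 fold change of 1 as well, NDUFA4L2 was the only member, in D28WO of U87 and in D3, D28 and D28WO of U251, whereas 6.23%, 2.1%, 7.38% and 14.9% of all genes passed both limits in U87 and 14.3%, 5.76%, 15.2% and 7.45% in U251 (D3, D14, D28 and D28WO in turn). The median log2 fold change of the nuclear members in D28WO was -0.44 in U87, or 0.739 of the Untreated level, and -0.12 in U251, or 0.918 of it. Over all genes tested the median in these comparisons was 0.25 and 0.015. Relative to all genes, the nuclear members thus lay lower by 0.69 in U87 and 0.14 in U251 on the log2 scale. These differences depended on the scaling, with -0.26 and -0.097 under quantile normalization and -0.14 and -0.10 when centred on genes of like length and abundance, a setting described below. At D3, D14 and D28 the nuclear medians were -0.17, -0.060 and -0.14 in U251, with medians of all genes of 0.13, 0.096 and 0.16. Since all 4 comparisons of a line share its Untreated libraries, their values are not independent of each other.

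**Figure D1:**
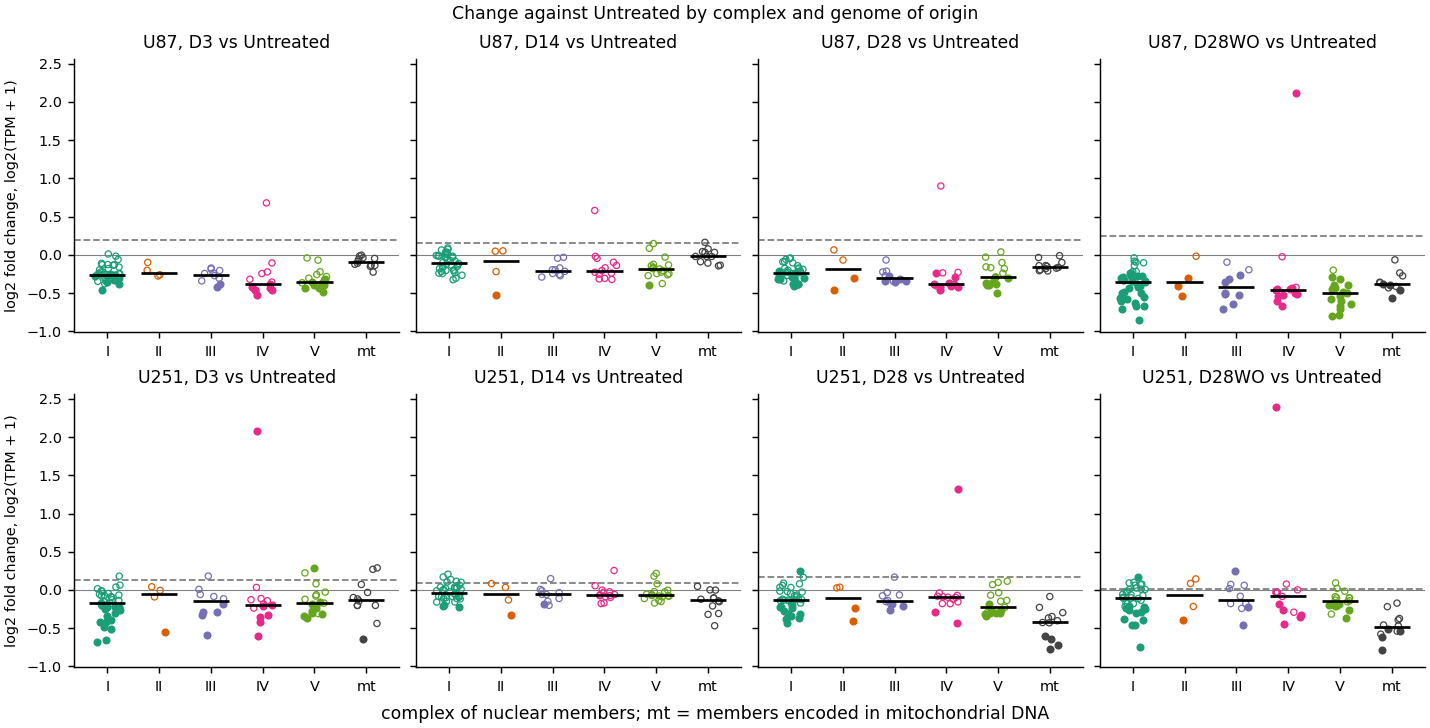
Log2 fold change against Untreated of every member (y axis, log2(TPM + 1)) for the nuclear members by complex and for the mitochondrial members (mt), in 8 panels by line and group. Points are genes (filled where the limma adjusted p was under 0.05), black bars are medians and the dashed line is the median of all genes tested, which lies above the median of every set of members in all 8 panels. The points above 1 are NDUFA4L2.

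The counts of U87 rested in part on single libraries. The count of members lower at D3 was 5 without D3 replicate 2, 10 without D3 replicate 3 and 13 without Untreated replicate 3. At D28 of U87 it was 18 without Untreated replicate 3 and 21 without D28 replicate 2, and in D14 of U87 it was 0 without Untreated replicate 3 or either D14 library. In U251 the count lower in D28WO was 18 without Untreated replicate 3 and 19 without D28WO replicate 1, the count higher was 1 without D28WO replicate 1 or Untreated replicate 1, and the count higher at D3 was 1 without Untreated replicate 1. At D14 of U251 the count lower was 1 without Untreated replicate 2, Untreated replicate 3 or D14 replicate 1, and 0 without D14 replicate 3. A fit of only the 2 compared groups, which keeps the libraries labelled D14 out of the other comparisons, gave 2 members lower at D3, 7 at D28 and 71 in D28WO of U87, and 27, 25 and 24 in U251.

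Summed over the 80 nuclear members, the chain took 1.58%, 1.60% and 1.83% of all TPM in the Untreated U87 libraries and 1.21%, 1.27% and 1.21% in those labelled D28WO. The means were 1.67% ± 0.141 (SD, n = 3) and 1.23% ± 0.0352 (SD, n = 3), and the groups did not overlap. Between them lay D3 with 1.36% and 1.36%, D14 with 1.54% and 1.44% and D28 with 1.36%, 1.32% and 1.47%. Untreated replicate 3 had the highest nuclear share of U87. In U251 the nuclear share was 1.33%, 1.37% and 1.44% in Untreated and 1.22%, 1.29% and 1.26% in D28WO, again without overlap, and D14, at 1.30%, 1.37% and 1.33%, overlapped with Untreated. The share of the 12 mitochondrial members was 0.836%, 0.6001% and 0.469% in the D28 libraries of U87 and 0.422%, 0.737% and 0.589% in the Untreated libraries of U251, so that U251 Untreated replicate 1 lay beside D28WO (0.412%, 0.408% and 0.422%). The shares are descriptions, with no test.

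**Figure D2:**
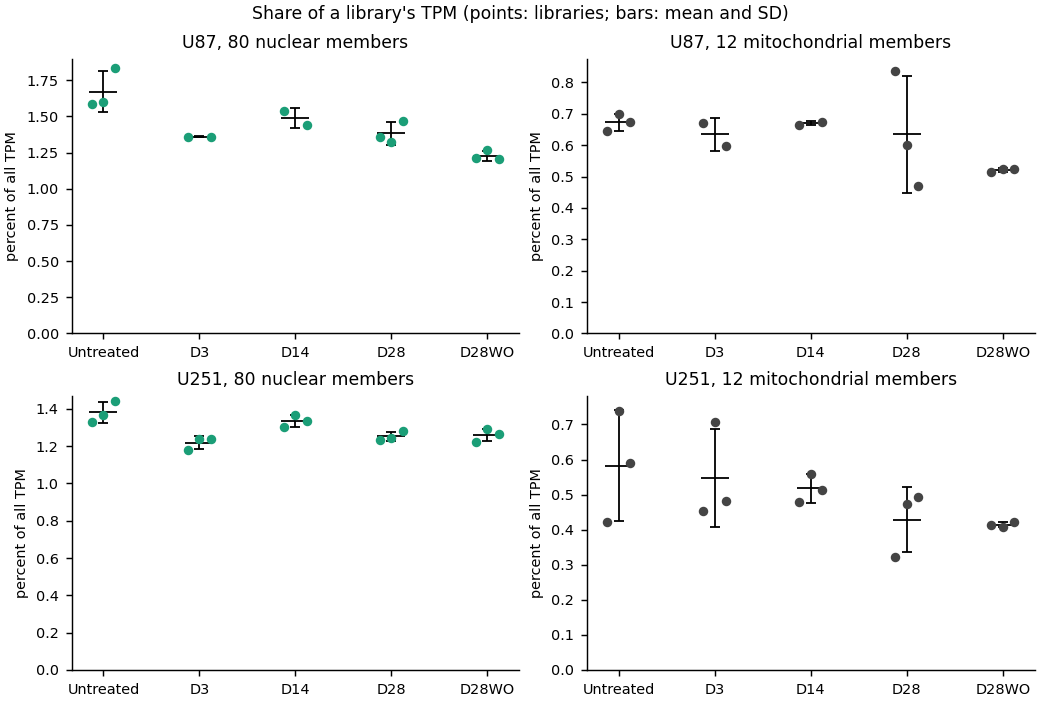
Percent of a library's TPM (y axis, from 0) taken by the 80 nuclear members (left) and the 12 mitochondrial members (right) in U87 (top) and U251 (bottom), by group. Points are libraries and bars are the mean and SD. The nuclear share of the U87 libraries labelled D28WO lies below every other U87 library, and the mitochondrial share has its widest spread in D28 of U87 and in Untreated and D3 of U251.

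Complex I has a core of subunits conserved from bacteria, of which 7 are nuclear and 7 mitochondrial members, and a shell of accessory subunits that stabilize it and help it assemble. Most of the nuclear subunits that fell belong to the shell, which is also the larger set. In D28WO of U87 25 of 29 accessory subunits fell, with a median log2 fold change of -0.42, and 3 of 7 core subunits (NDUFS8, NDUFV1 and NDUFV2), with a median of -0.23. In U251 12 of 29 accessory subunits fell in D28WO (median -0.18), and of the core 0 fell and 1 rose (median 0.025). At D3 of U251 the counts lower were 16 of 29 and 0 of 7, and at D28 11 of 29 and 0 of 7. Of all genes 13.4% were lower in D28WO of U87 and 16%, 14.7% and 13.4% at D3, D28 and D28WO of U251, so that 0 of 7 was within 2 genes of the share of all genes. The difference between core and accessory subunits was not tested. When libraries were centred on genes of like length and abundance, a setting described below, 0 of the 3 core subunits were lower in D28WO of U87 and NDUFS8 was higher by the test. Under quantile normalization its log2 fold change there was 0.028.

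NDUFB8, an accessory subunit of the membrane arm, had the lowest log2 fold change of all members in D28WO of U87. Its TPM was 214, 227 and 243 in Untreated and 114, 129 and 137 in D28WO of U87 (log2 fold change -0.85, SE 0.077, adjusted p = 7.73e-06 by limma). In U251 it was 144, 158 and 146 in Untreated and 86.1, 91.5 and 89.0 in D28WO (log2 fold change -0.74, SE 0.096, adjusted p = 5.4e-05). The D28WO libraries of both lines lay under all of the line's Untreated libraries. NDUFB8 was also lower at D3 and D28 in both lines, while at D14 of U251 it stood at 171, 156 and 154 TPM, within or above the Untreated range. NDUFA1, another accessory subunit, was at 171, 180.5 and 194 TPM in Untreated and 132, 134 and 129.8 TPM in D28WO of U251 (log2 fold change -0.46, SE 0.063, adjusted p = 9.24e-05), and fell by 0.56 on the log2 scale in U87 (adjusted p = 0.000351). NDUFA13, an accessory subunit first described as a cell death protein, fell in U251 by 0.42 at D3, 0.20 at D14, 0.43 at D28 and 0.29 in D28WO on the log2 scale, each past the test.

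The nuclear core subunits, which hold the flavin, the iron-sulfur clusters and the quinone site, had 1 call against Untreated in U251. NDUFS3 rose there in D28WO, from 197, 211 and 206 TPM to 236, 232 and 221 TPM (log2 fold change 0.17, SE 0.052, adjusted p = 0.0294), without overlap. In U87 NDUFS3 was at 200.2, 186 and 202 TPM in Untreated and 168, 172 and 164 TPM in D28WO, all lower, which did not pass the test (log2 fold change -0.22, adjusted p = 0.192). NDUFS8, which holds a pair of clusters next to the quinone site, was at 379, 374 and 394 TPM in Untreated and 308, 322 and 319.9 TPM in D28WO of U87 (log2 fold change -0.27, SE 0.053, adjusted p = 0.00169). NDUFV1, the NADH-binding subunit, had log2 fold changes of -0.30 (adjusted p = 0.015) in D28WO of U87 and 0.025 (adjusted p = 0.885) in D28WO of U251. NDUFV2 changed by -0.23 (adjusted p = 0.00681) in U87 and -0.062 (adjusted p = 0.656) in U251. NDUFS1 and NDUFS7 did not pass the test in D28WO of either line, with values from -0.24 (NDUFS7 in U87) to 0.10 (NDUFS7 in U251). NDUFA9, an accessory subunit beside the core, rose at D28 of U251, from 170, 189 and 180.2 to 212, 205 and 221 TPM (log2 fold change 0.24, SE 0.067, adjusted p = 0.01).

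Complex II, succinate dehydrogenase, belongs to both the citrate cycle and the chain, and all of its 4 subunits are nuclear. The catalytic subunit SDHA fell in U251 at D3, D14 and D28 but not in D28WO by the test. It was at 209.8, 214 and 186 TPM in Untreated, 128, 159 and 129 TPM at D3, 172, 172 and 143 TPM at D14, 144, 153 and 161 TPM at D28 and 171, 182 and 170.4 TPM in D28WO. The log2 fold changes were -0.55 (adjusted p = 0.000294), -0.32 (adjusted p = 0.0233), -0.41 (adjusted p = 0.00283) and -0.22 (adjusted p = 0.103) in turn, and in each group all libraries lay below the Untreated ones. In U87 the order differed, with SDHA at 218, 232 and 229 TPM in Untreated, 269, 213 and 232 TPM at D28 and 192, 167 and 190.1 TPM in D28WO. There it fell in D28WO alone (log2 fold change -0.31, SE 0.091, adjusted p = 0.0174).

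SDHC, a membrane anchor, fell in the U87 libraries labelled D14 and at D28 and D28WO. Its TPM was 230.3, 268 and 284 in Untreated, 221 and 207 at D3, 196 and 166 at D14, 183, 167 and 217 at D28 and 184, 174 and 179 in D28WO of U87. No treated library reached the lowest Untreated one, and the log2 fold change was -0.52 (adjusted p = 0.0308) at D14 and -0.54 (adjusted p = 0.00163) in D28WO. In U251 SDHC changed by -0.23 (adjusted p = 0.0297) at D28, where its libraries overlapped with Untreated, and -0.40 (adjusted p = 0.00168) in D28WO. SDHB, the iron-sulfur subunit whose promoter is shown above, went from 172, 165 and 193 to 133, 137 and 129.6 TPM in U87 (in D28WO, log2 fold change -0.40, SE 0.081, adjusted p = 0.00188), whereas in U251 it was at 129, 140.3 and 148 TPM in Untreated and 153, 156 and 153 TPM in D28WO, all higher, without passing the test (log2 fold change 0.14, adjusted p = 0.17). The other anchor, SDHD, passed the test in no group of either line, with log2 fold changes in D28WO of -0.018 in U87 and 0.085 in U251.

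Complex III passes electrons from ubiquinol to cytochrome c. Of its 10 nuclear subunits 2, 5 and 8 fell at D3, D28 and D28WO of U87, where 4.28%, 6.55% and 13.4% of all genes were lower. In U251 the counts were 5, 3 and 2, beside 16%, 14.7% and 13.4%, so that those of D28 and D28WO were within 2 genes of the share. Centred on genes of like length and abundance, UQCR10, UQCRB, UQCRFS1, UQCRH, UQCRHL and UQCRQ were lower in D28WO of U87. UQCRH, the hinge subunit beside cytochrome c1, was at 268, 246 and 306 TPM in Untreated and 162, 176 and 160 TPM in D28WO of U87 (log2 fold change -0.71, SE 0.082, adjusted p = 4.19e-05). In U251 the values were 192, 190.4 and 192 and 138, 138 and 141 TPM (log2 fold change -0.46, SE 0.047, adjusted p = 5.82e-06). The groups did not overlap in either line. UQCRHL, its near copy, was at 21.9, 19.7 and 25.8 TPM in Untreated and 13.4, 14.9 and 13.7 TPM in D28WO of U87, and reads that the 2 share could have been split between them. CYC1, cytochrome c1, was called in opposite directions in D28WO of the lines. It was at 129.7, 152 and 147 TPM in Untreated and 174, 167 and 168 TPM in D28WO of U251, where it rose (log2 fold change 0.25, SE 0.069, adjusted p = 0.0153). In U87 it was at 171, 179.5 and 219 and 144, 162 and 164 TPM and fell (log2 fold change -0.27, SE 0.093, adjusted p = 0.0349). Centred on genes of like length and abundance, CYC1 was not lower by the test in D28WO of U87 and stayed higher in U251. The mobile carrier cytochrome c itself, CYCS, changed by -0.45 (adjusted p = 0.00178) in D28WO of U87 and 0.093 (adjusted p = 0.366) in D28WO of U251.

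Complex IV, cytochrome c oxidase, has 3 mitochondrial core subunits within a coat of nuclear ones, several of which exist as tissue or condition isoforms. Of 13 nuclear members 7 fell at D3, 9 at D28 and 10 in D28WO of U87, beside 4.28%, 6.55% and 13.4% of all genes. In U251 6, 2 and 5 fell, beside 16%, 14.7% and 13.4%, so that the count at D28 was near the share of all genes. Centred on genes of like length and abundance, those lower in U87 were COX7B at D3 and COX5A and NDUFA4 at D28. In D28WO of U87 they were COX5A, COX6A1, COX6B1, COX7B and NDUFA4. COX6B1, which faces the intermembrane space, went from 219, 229.6 and 256 to 142, 148 and 152 TPM in U87 (in D28WO, log2 fold change -0.66, SE 0.069, adjusted p = 2.08e-05) and from 175, 184 and 186 to 118, 148 and 136 TPM in U251 (log2 fold change -0.44, SE 0.077, adjusted p = 0.000712). Neither pair of groups overlapped. COX8A, whose promoter also stands above, was at 229.8, 258 and 302 TPM in Untreated, 188 and 176 TPM at D3 and 179, 198 and 177 TPM in D28WO of U87 (log2 fold change -0.52 at D3, adjusted p = 0.00671, and -0.50 in D28WO, adjusted p = 0.00119). In U251 it passed the test in no group, with a log2 fold change of -0.031 in D28WO. COX7A2, the ubiquitous isoform of subunit 7A, fell most among complex IV members at D3 of U251, from 347, 369.6 and 399.6 to 249, 233 and 248 TPM (log2 fold change -0.61, SE 0.069, adjusted p = 9.33e-06). COX4I1, the ubiquitous isoform of subunit 4, fell in D28WO of both lines, by 0.43 in U87 and 0.19 in U251 on the log2 scale (adjusted p = 0.00175 and 0.0406). Centred on genes of like length and abundance, COX4I1 was lower by the test in neither line. COX7A2L, a factor that joins complexes III and IV in supercomplexes, did not pass the test in D28WO of either line (-0.025 and -0.031).

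NDUFA4L2, a relative of NDUFA4 known as a target of hypoxia-inducible factor, had the largest rise of all members at D3, D28 and D28WO in U251 and in D28WO of U87. It became a member through libraries in which it was higher than in Untreated cells, so this rank depends on the choice. In U251 it stood at 3.47, 2.73 and 4.51 TPM in Untreated, 17.2, 20.5 and 16.6 TPM at D3, 4.67, 4.004 and 2.63 TPM at D14, 12.4, 9.46 and 9.16 TPM at D28 and 22.8, 22.6 and 23.0 TPM in D28WO. The D3, D28 and D28WO libraries all lay above the Untreated ones and the D14 libraries overlapped with them. By limma the log2 fold change was 2.08 ± 0.19 (SE) at D3 (adjusted p = 1.47e-06), 1.32 (adjusted p = 9.66e-05) at D28 and 2.40 (adjusted p = 5.73e-07) in D28WO. In U87 it was at 5.14, 5.16 and 1.91 TPM in Untreated, 7.78 and 5.70 TPM at D3, 7.24 and 5.22 TPM at D14, 12.9, 4.77 and 7.93 TPM at D28 and 19.7, 19.1 and 20.8 TPM in D28WO. Its 3 D28WO libraries stood apart from all the other U87 libraries (log2 fold change 2.12, SE 0.34, adjusted p = 0.000472), and at D3, D14 and D28 it did not pass the test.

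NDUFA4 itself went the other way in U87, from 200.5, 246 and 264 TPM in Untreated to 161, 163 and 161 TPM in D28WO (log2 fold change -0.54, SE 0.11, adjusted p = 0.00256). In U251 it was at 158, 175 and 183 TPM in Untreated and 171, 188 and 147 TPM in D28WO, which overlap. C15orf48, which encodes a further relative of NDUFA4 induced in inflammation (NMES1) and is no member by its symbol, was read beside them. In U87 it was at 3.73, 0.827 and 1.70 TPM in Untreated, 31.1 and 20.1 TPM at D3, 2.20 and 3.18 TPM at D14, 16.8, 29.99 and 15.2 TPM at D28 and 29.1, 33.6 and 32.7 TPM in D28WO. It was high in the groups in which the IFN-γ-responsive genes were high and near the Untreated level in the libraries labelled D14 (log2 fold change 3.19 at D3, adjusted p = 0.000222, and 3.52 in D28WO, adjusted p = 1.18e-05). In U251 no library exceeded 2.37 TPM. Thus in D28WO both relatives were higher in U87, and NDUFA4L2 alone of the pair passed the test in U251.

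**Figure D3:**
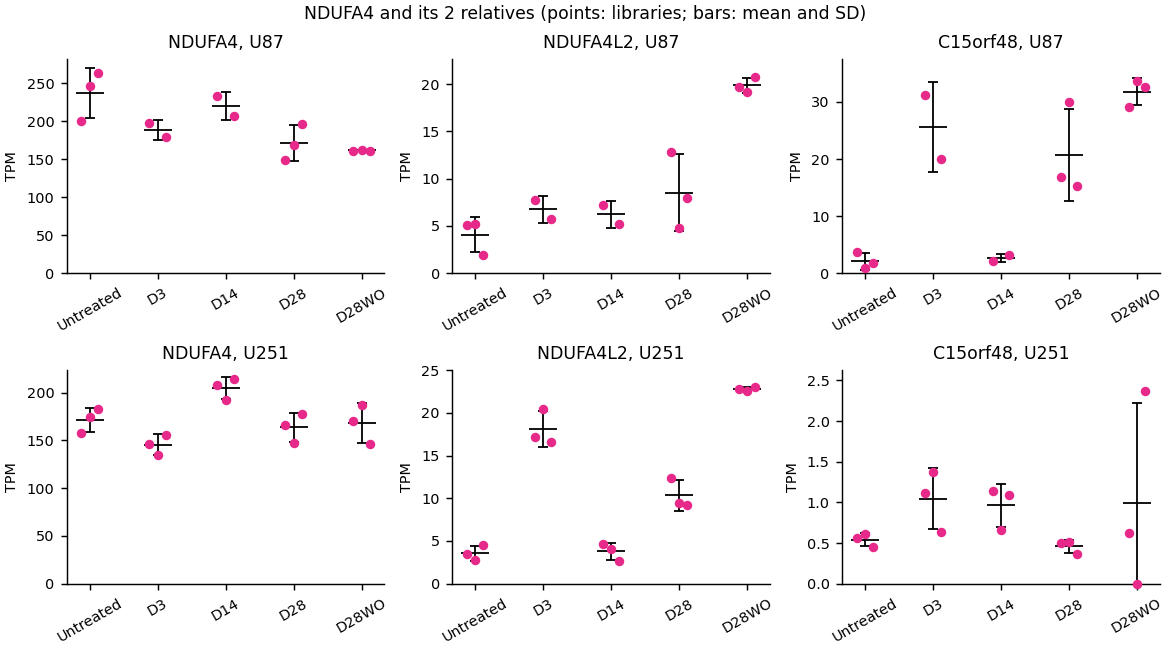
TPM (y axes, from 0, each on its own scale) of NDUFA4, NDUFA4L2 and C15orf48 in U87 (top) and U251 (bottom) by group, with points for libraries and bars for the mean and SD. NDUFA4L2 is highest in the libraries labelled D28WO of both lines and near the Untreated level at D14 of U251, and C15orf48 rises in U87 and stays under 2.5 TPM in U251.

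ATP synthase has a catalytic F1 head (ATP5F1 genes), a membrane part with the c ring (ATP5M genes) and a peripheral stalk (ATP5P genes). Its nuclear subunits fell most widely in D28WO of U87, with 16 of 17 lower and a median of -0.50. By part, the counts lower there were 4 of 5 for the head (median -0.40), 8 of 8 for the membrane part (median -0.62) and 4 of 4 for the stalk (median -0.56). Centred on genes of like length and abundance, 9 of the 17 were lower in D28WO of U87, 4 of them in the membrane part. In U251 the counts by part were 1 of 5, 3 of 8 and 1 of 4. Of all genes 13.4% were lower in D28WO of U87 and 13.4% in D28WO of U251, which the counts of the head and the stalk in U251 exceeded by less than 1 gene. The stalk subunits were also lower by the test in U87 in 4 of 4 at D3 and 4 of 4 at D28, where 4.28% and 6.55% of all genes were lower. Centred on genes of like length and abundance, ATP5PB and ATP5PF stayed lower at D3 and ATP5PB alone of the stalk at D28. The fit of only the 2 compared groups, given above, left fewer members lower at both times. ATP5PB, the stalk subunit b, was at 525, 523 and 634 TPM in Untreated, 395 and 428 TPM at D3, 426 and 424 TPM at D14, 382, 374 and 423 TPM at D28 and 346, 366 and 343 TPM in D28WO of U87. It fell in all 4 groups, with log2 fold changes of -0.44 (adjusted p = 0.00664), -0.39 (adjusted p = 0.0308), -0.51 (adjusted p = 0.00102) and -0.66 (adjusted p = 5.13e-05), and no treated library reached the Untreated range. In U251 it fell by 0.19 in D28WO on the log2 scale (adjusted p = 0.00479).

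The c ring subunit is encoded by 3 genes, ATP5MC1, ATP5MC2 and ATP5MC3, whose mature proteins are the same and whose regulation differs. ATP5MC3 went from 206, 222 and 245 to 121, 130.5 and 137 TPM in D28WO of U87 (log2 fold change -0.79, SE 0.072, adjusted p = 8.08e-06) and from 176, 171 and 183 to 149, 147 and 161 TPM in U251 (log2 fold change -0.21, SE 0.061, adjusted p = 0.0175). ATP5MC1 changed by -0.71 (adjusted p = 0.000184) in U87 and -0.37 (adjusted p = 0.00742) in U251. ATP5MC2 moved least of the 3 in D28WO, by -0.32 (adjusted p = 0.0101) and -0.10 (adjusted p = 0.208). At D28 of U251, by contrast, ATP5MC1 was at 127, 145 and 148 TPM against 124, 129 and 133 TPM in Untreated, overlapping, while ATP5MC2 and ATP5MC3 fell there (log2 fold changes -0.30 and -0.32, adjusted p = 0.000736 and 0.000874). ATP5MF, of the membrane part, was at 248, 324 and 333 TPM in Untreated and 166, 166 and 179.7 TPM in D28WO of U87 (log2 fold change -0.81, SE 0.18, adjusted p = 0.00422). Its D28 libraries ranged over 412, 222 and 275 TPM. ATP5F1D, the delta subunit of the head, fell in U87 in D28WO alone (log2 fold change -0.30, adjusted p = 0.0197). ATP5IF1, the inhibitor of the reverse reaction and no member, changed by -0.48 (adjusted p = 0.000646) in D28WO of U87 and 0.052 (adjusted p = 0.569) in U251.

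The 12 mitochondrial members are cut from long polycistronic transcripts, so their levels can differ through processing and stability. In U87 0 of 12 passed the test at D3, D14 or D28, with medians of -0.098, -0.021 and -0.16, and 4 fell in D28WO (MT-CO2, MT-CYB, MT-ND5 and MT-ND6, median of the 12 -0.39). In U251 1 fell at D3 (MT-ND3), 0 at D14, 4 at D28 (MT-ND3, MT-ND6, MT-CO3 and MT-ATP6) and 4 in D28WO (MT-ND3, MT-ND5, MT-ND6 and MT-CO3), with medians of -0.13, -0.13, -0.41 and -0.49. Of all genes 4.28%, 1.02%, 6.55% and 13.4% were lower at D3, D14, D28 and D28WO of U87, and 16%, 7.31%, 14.7% and 13.4% in U251, so that the counts at D3 and D14 were under the share of all genes in both lines. In U251 D28 and D28WO the mitochondrial median was lower than the nuclear one (-0.14 and -0.12), and at D3, D14 and D28 of U87 it was the nuclear median that was lower. Without D28 replicate 1 the mitochondrial median of D28 in U87 was -0.34, and without D28 replicate 3 it was 0.013. In U251 the medians moved with the Untreated libraries used. Without Untreated replicate 1 they were -0.37, -0.37, -0.62 and -0.68 at D3, D14, D28 and D28WO, and without Untreated replicate 2 they were 0.058, 0.091, -0.21 and -0.28. These differences between genomes were not tested. Under quantile normalization the mitochondrial medians lay above 0 at D3, D14 and D28 of U87 (0.12, 0.19 and 0.043) and at D3 and D14 of U251 (0.046 and 0.065), and that of D28WO of U87 was -0.074. Centred on genes of like length and abundance, a setting chosen after the data were seen, 0 of the 12 were lower in D28WO of U87, with a median of -0.016.

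MT-CO2, a core subunit of complex IV that holds a copper site, was at 825, 776 and 677 TPM in Untreated, 837, 676 and 496 TPM at D28 and 498, 516 and 525 TPM in D28WO of U87 (log2 fold change -0.56, SE 0.15, adjusted p = 0.00875). D28WO lay below Untreated and D28 spanned both. MT-CO1, the catalytic subunit, was at 606, 669.6 and 628 TPM in Untreated and 603, 612 and 601 TPM in D28WO, which overlap (log2 fold change -0.066, adjusted p = 0.715). MT-CYB, cytochrome b of complex III, fell from 330.2, 372 and 396 to 256, 272 and 268 TPM (log2 fold change -0.46, SE 0.12, adjusted p = 0.0101).

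In U251 MT-ND3, a complex I subunit, was at 338, 467 and 455 TPM in Untreated, 228, 309 and 268 TPM at D3, 209, 266 and 261 TPM at D28 and 314, 287 and 263 TPM in D28WO. No library of these 3 groups reached the lowest Untreated one, and the log2 fold changes were -0.64 (adjusted p = 0.00364), -0.77 (adjusted p = 0.00106) and -0.53 (adjusted p = 0.0172). MT-ND6, the single subunit encoded on the light strand, was at 307, 520.1 and 419 TPM in Untreated and 215, 246 and 246 TPM in D28WO (log2 fold change -0.79, SE 0.18, adjusted p = 0.00537). MT-CO3 was at 419, 731 and 577 TPM in Untreated and 254, 384 and 399 TPM at D28 (log2 fold change -0.73, SE 0.20, adjusted p = 0.011), below it in every library. MT-ATP6, of the proton channel of complex V, fell by the test at D28 although its libraries overlapped, 305, 615 and 417 TPM in Untreated and 209, 304 and 320 TPM at D28 (log2 fold change -0.65, adjusted p = 0.0338). MT-ND5 fell in D28WO (log2 fold change -0.50, adjusted p = 0.0465). The remaining MT-ND1, MT-ND2, MT-ND4, MT-ND4L, MT-CO1, MT-CO2 and MT-CYB passed the test in no group of U251, and MT-ND1 and MT-ND4L were higher at D3 (0.27 and 0.29) and lower in D28WO (-0.17 and -0.22) without passing it. The mitochondrial ribosomal RNAs, which are not members, did not pass the test in D28WO of U87, where MT-RNR1 and MT-RNR2 had log2 fold changes of -0.15 (adjusted p = 0.17) and 0.095 (adjusted p = 0.536).

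**Figure D4:**
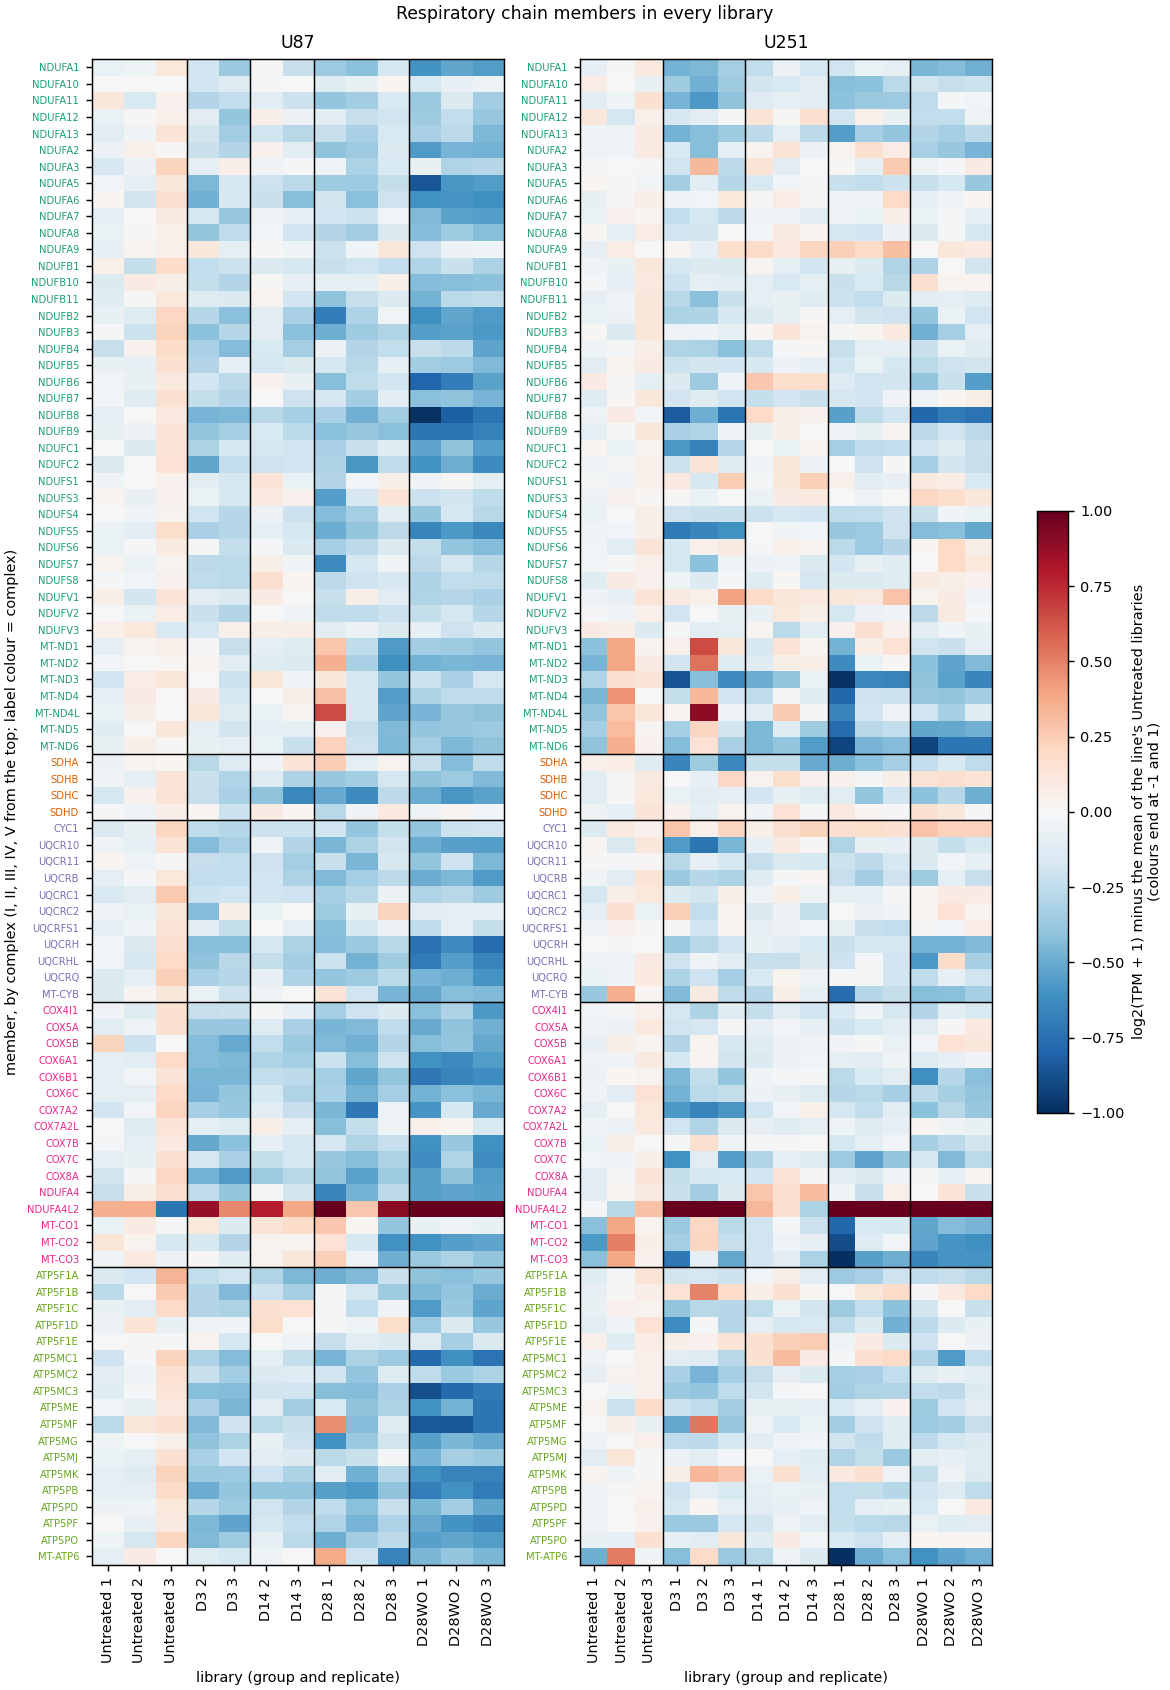
Heat map of log2(TPM + 1) of the members (rows, by complex, 1 left out) in each library (columns, by group) minus the mean of the line's Untreated libraries, blue for lower and red for higher, with colours ending at -1 and 1. The U87 libraries labelled D28WO are the most evenly blue, U251 keeps more pale rows, NDUFA4L2 is the red row, and the MT- rows change together within a library (U251 Untreated replicates 1 and 2, D3 replicate 2 and D28 replicate 1).

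The comparison of D28WO with D28 asks what differed between cells kept with IFN-γ and cells labelled as taken off it. In U87 20 members were lower in D28WO and 2 higher (NDUFA4L2 among them), beside 8.44% and 9.9% of all genes. In U251 7 were lower and 8 higher, beside 18.8% and 10.3%. With size factors the U87 count lower was 9. The U251 counts moved with the scaling, to 15 lower and 6 higher under quantile normalization, 5 and 19 with size factors, and 16 and 9 when centred on genes of like length and abundance. NDUFA4L2 passed both limits in each line, as did 5.53% of all genes in U87 and 9.26% in U251. The nuclear medians were -0.15 in U87 and 0.036 in U251, the latter -0.018 under quantile normalization. ATP5MC1, COX6B1, NDUFB8 and UQCRH were lower in D28WO than in D28 in both lines. When centred, NDUFB8 and UQCRH stayed lower in both lines, and ATP5MC1 and COX6B1 in U251 alone. NDUFB8 went from 182, 163 and 179 to 114, 129 and 137 TPM in U87 (log2 fold change -0.46, adjusted p = 0.00187) and from 102, 124 and 129.5 to 86.1, 91.5 and 89.0 TPM in U251 (log2 fold change -0.41, adjusted p = 0.00603), without overlap. In U251 the core subunits NDUFS3 and NDUFS8 and the c ring gene ATP5MC2 were among the higher (0.19, 0.19 and 0.20). The U87 count lower was 8 without D28WO replicate 1 and 13 without D28WO replicate 2 or 3, and the count higher was 0 without D28 replicate 2 or any single D28WO library and 1 without D28 replicate 1 or 3. In U251 the count higher was 5 without D28WO replicate 2.

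Members lower in both lines numbered 13 at D3 (of 26 in U87 and 37 in U251), 0 at D14, 16 at D28 (of 40 and 30) and 25 in D28WO (of 69 and 29). Of all genes tested in both lines, 2.25%, 0.181%, 2.61% and 5.95% were lower in both in turn. The counts of each line alone bear on these numbers, and whether the lines shared more members than those counts give was not tested. The 25 of D28WO came from each complex, with COX4I1, COX6B1, COX6C and COX7B of complex IV, ATP5F1A, ATP5MC1, ATP5MC3, ATP5MG and ATP5PB of complex V, UQCRB and UQCRH of complex III, SDHC of complex II, and MT-ND5, MT-ND6 and 11 nuclear subunits of complex I. Centred on genes of like length and abundance, not all of the 25 stayed lower, and COX4I1 did so in neither line. CYC1 was lower in D28WO of U87, a call lost after centring, and higher in D28WO of U251. The lines are set side by side here without a test between them.

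Nuclear members are short and abundant, and that moved with the result in U87. Their canonical transcripts had a median length of 783.5 bases, 47 up to 1000 bases and 33 longer. Among other protein-coding genes over 50 TPM in U87, those up to 1000 bases had a median log2 fold change of -0.31 in D28WO (467 genes, 56.1% of them lower by the test) and those over 4000 bases 0.081. At D3 and D28 of U87 the short abundant genes had medians of -0.22 and -0.25, near those of the nuclear members (-0.27 and -0.28). In U251 the short abundant genes had medians of -0.13, -0.049 and -0.050 at D3, D28 and D28WO. Within the members, those up to 1000 bases and those longer had medians of -0.44 and -0.40 in D28WO of U87. When each library was centred on other genes of like length and abundance, a setting chosen after the data were seen, 9, 13 and 35 members were lower at D3, D28 and D28WO of U87, 5, 10 and 32 of them also lower without centring. In U251 the counts were 28, 28 and 28. After centring the log2 fold changes of NDUFS8, ATP5MC2, NDUFV2, NDUFA13 and MT-ND6 in D28WO of U87 lay above 0, and the nuclear medians in D28WO were -0.18 in U87 and -0.10 in U251. The number of genes above 0 TPM moved with the groups too, from 24223 to 25459 in the Untreated libraries of U87 and from 26096 to 28649 in the others. In U251 it was 24450 to 27187 in Untreated, 28955 to 30246 at D28 and 25633 to 26378 in D28WO. The trimmed mean of olfactory receptor genes, read for low-level signal, was 0.00358 to 0.00707 TPM in Untreated and 0.0212 to 0.0273 TPM in D28WO of U87. In U251 it was 0.00488 to 0.0121 TPM and 0.00802 to 0.0151 TPM. The part of these in the falls was not tested.

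**Figure D5:**
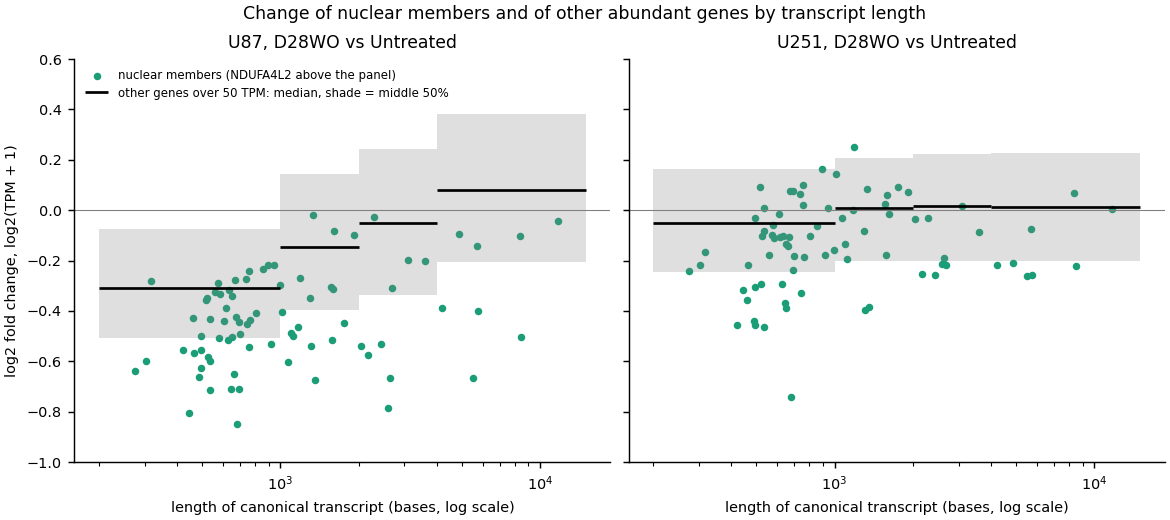
Log2 fold change in D28WO against Untreated (y axis) by length of the canonical transcript (x axis, bases, log scale) for the nuclear members (points; NDUFA4L2 lies above the panels) in U87 and U251. Black lines are medians and grey bands the middle 50% of other protein-coding genes over 50 TPM in 4 length classes. In U87 the median of other genes rises with length and most members lie below the line of their class, and in U251 the line is nearly flat.

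Other genes of the pathway were read from fixed lists, by counts lower and higher in D28WO beside the shares of all genes given above. Of the assembly factors of the complexes, 10 of 55 fell and 7 rose in U87, and 7 fell and 11 rose in U251. SCO2, a copper chaperone of complex IV, was at 25.3, 21.5 and 17.1 TPM in Untreated and 51.8, 55.1 and 51.4 TPM in D28WO of U87 (log2 fold change 1.28, SE 0.17, adjusted p = 0.000138), and at 20.7, 17.9 and 21.2 and 42.3, 55.9 and 54.2 TPM in U251 (log2 fold change 1.30, SE 0.15, adjusted p = 2.07e-05), with no overlap in either line. SDHAF4, an assembly factor of complex II, rose in D28WO of U87 (log2 fold change 1.02, adjusted p = 0.00886) and fell at D14 of U251 (log2 fold change -1.08, adjusted p = 0.000213). Of the mitochondrial ribosomal proteins, which translate the mitochondrial members, 36 of 78 fell and 4 rose in U87, and 9 fell and 20 rose in U251. In U87 13 of the 78 were lower at D3 and 25 at D28, beside 4.28% and 6.55% of all genes. Of the citrate cycle enzymes, 10 of 14 fell and 1 rose in U87, and 4 fell and 1 rose in U251. IDH2, the NADP-dependent isocitrate dehydrogenase, fell past both limits in U251 at D3 and D28 (log2 fold changes -1.33 and -1.13, adjusted p = 2.94e-08 and 1.36e-07), and in D28WO of U87 by 0.74 on the log2 scale (adjusted p = 7.69e-05).

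Of the genes for mitochondrial DNA maintenance and expression, 9 of 30 fell and 10 rose in U87, and 3 fell and 4 rose in U251. PNPT1, a mitochondrial RNA-degrading enzyme that is also an interferon-stimulated gene, was at 42.7, 39.0 and 38.2 TPM in Untreated, 95.2, 95.8 and 96.9 TPM at D3, 74.3, 69.8 and 69.1 TPM at D14, 81.4, 79.3 and 79.7 TPM at D28 and 93.2, 102 and 91.3 TPM in D28WO of U251. All treated libraries lay above the Untreated ones, and the log2 fold change was 1.25 (adjusted p = 2.27e-09) at D3 and 1.24 (adjusted p = 3.39e-09) in D28WO. In U87 PNPT1 rose in D28WO alone, by 0.62 (adjusted p = 0.000719). Of 10 regulators of mitochondrial biogenesis, 6 rose and 1 fell at D3 of U251, beside 24.9% and 16% of all genes. In D28WO of U251 3 rose and 1 fell, beside 14.3% and 13.4%, within 2 genes of those shares. PPARGC1A, which encodes the coactivator PGC-1α, was at 7.10, 11.4 and 5.98 TPM in Untreated and 40.9, 42.8 and 30.6 TPM at D3, 36.4, 35.2 and 42.6 TPM at D14, 29.5, 23.9 and 26.2 TPM at D28 and 25.1, 20.7 and 30.5 TPM in D28WO of U251. It was higher in every treated library (log2 fold change 2.12 at D3, adjusted p = 1.82e-06, and 1.56 in D28WO, adjusted p = 5.4e-05). In U87 it was at 3.26, 2.65 and 1.76 TPM in Untreated, 11.6, 10.1 and 4.01 TPM at D28 and 6.72, 8.51 and 13.2 TPM in D28WO, and rose in both (log2 fold change 1.34 at D28, adjusted p = 0.0401, and 1.53 in D28WO, adjusted p = 0.0126). PPARGC1B, a related coactivator, rose at D28 of U87 (log2 fold change 0.82, adjusted p = 0.0208) and at D3, D14 and D28 of U251, with a log2 fold change of 0.97 (adjusted p = 0.00112) at D3. In U87 PPARGC1A and NRF1 were the 2 of 10 regulators that rose in D28WO, under the 28.6% of all genes, and 0 fell, beside 13.4%. In the same libraries MYC fell in U251 (log2 fold change -0.47, adjusted p = 0.000417) and did not pass the test in U87 (log2 fold change -0.13, adjusted p = 0.187), NRF1 changed by 0.58 (adjusted p = 0.00764) in U87 and 0.43 (adjusted p = 0.0292) in U251, ESRRA rose in U251 (log2 fold change 0.32, adjusted p = 0.0152), and GABPA and YY1 passed the test in neither line. Of the electron carriers and inhibitors, 5 of 15 fell and 3 rose in U87, and 3 fell and 1 rose in U251. UCP2, an uncoupling protein, fell past both limits in D28WO of U251 (log2 fold change -1.18, adjusted p = 0.0142).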

How the data were processed

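Total RNA of the U87 and U251 cells had been sequenced with paired ends from libraries made with a TruSeq RNA kit. Per the labels and the study's methods, the authors trimmed reads with Trim Galore, aligned them to GRCh38 with STAR and counted them with featureCounts. The authors deposited TPM values in 1 file for each line, in which every library has the same total. How TPM was computed and the strand setting are not given in the sources used here, and TPM keeps no depth. The methods describe triplicates as independent.

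Samples were grouped by their labels. Of the U87 columns 2 share a name, could not be assigned and were not used. The members, gene lists and tests were chosen with earlier results of these data known. Values were taken as log2(TPM + 1) for genes averaging 0.5 TPM or more in a line, and all 5 groups of a line were fitted in 1 linear model with limma 3.58.1 (R 4.3.3), with a trended prior and Benjamini-Hochberg adjustment over all genes tested. The fit was tested on simulated data. Named members were all mitochondrial ones, the 3 nuclear members lowest and the 3 highest in D28 and D28WO of each line, and the lists of core complex I, complex II and isoforms. Of other lists, genes past a log2 fold change of 1 and the regulators were named. Alternatives were a pseudocount of 0.1, other filters, quantile normalization, size factors, rescaling without mitochondrial transcripts, only the 2 compared groups, a replicate block, array weights and leaving out each library. Promoters came from RefSeq. Values of 1 member are not reported here.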

Additional observations from a re-analysis of the deposited data

Results flagged for a closer look

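For some members the groups compared did not overlap in either line, and lay lower in U87 and higher in U251. Since the tables were normalized separately, the difference between the lines was not tested. CYC1, cytochrome c1 of complex III, had log2 fold changes of -0.27 (adjusted p = 0.0519) in U87 and 0.17 (adjusted p = 0.0687) in U251 at D28, neither past the limma test. In D28WO it fell in U87 and rose in U251, with -0.27 (adjusted p = 0.0349) and 0.25 (adjusted p = 0.0153). Centred on genes of like length and abundance, the call in U87 was lost and that in U251 stayed. NDUFS3, a core subunit of complex I, passed the test in D28WO of U251 (0.17, adjusted p = 0.0294) and not in U87 (-0.22, adjusted p = 0.192). SDHB of complex II passed it in D28WO of U87 (-0.40, adjusted p = 0.00188) and not in U251 (0.14, adjusted p = 0.17). In D28WO against D28 the c ring gene ATP5MC3 passed the test in U87 (-0.39, adjusted p = 0.00329) and not in U251 (0.10, adjusted p = 0.227). The same held for SDHA, the catalytic subunit of complex II, with -0.37 (adjusted p = 0.0151) in U87 and 0.20 (adjusted p = 0.137) in U251.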

How the results depend on the processing

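Quantile normalization and size factors took the median of all genes from 0.20, 0.15, 0.19 and 0.25 at D3, D14, D28 and D28WO of U87 to between -0.026 and 0.068. The cause of the values that moved was not tested, except that a fit of 2 groups has fewer samples. Under settings other than leaving out a library, 158 counts of members stayed within 1.5 times the value reported and 42 did not, and 167 medians moved by less than 1 SD, 25 by more without a change of sign and 8 by more with one. Of the 167, 4 also changed sign, all mitochondrial medians. That of D28WO vs D28 in U251 was 0.066 with size factors, and those of D28 of U87, D3 of U251 and D14 of U251 were 0.043, 0.046 and 0.065 under quantile normalization. TPM gives no depth, so counting error is not in any value, and groups of 2 libraries in U87 limit D3 and D14.

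Under quantile normalization, members lower numbered 2 in D14 of U251, 15 in D28WO vs D28 in U251, 0 in D14 of U87, 16 in D28 of U87 and 13 in D3 of U87. Here members higher numbered 2 in D14 of U251, 5 in D28 of U251, 6 in D3 of U251 and 1 in D14 of U87. Here the nuclear median was -0.0037 in D14 of U251, -0.089 in D28 of U251, -0.018 in D28WO vs D28 in U251, -0.060 in D14 of U87, -0.14 in D28 of U87, -0.28 in D28WO of U87 and -0.15 in D3 of U87. Here the mitochondrial median was 0.19 in D14 of U87, -0.074 in D28WO of U87 and 0.12 in D3 of U87. Here the sign turned for ATP5PB in D3 of U251 (0.014), NDUFS8 in D28 of U87 (0.0036) and NDUFS8 in D28WO of U87 (0.028). With median-ratio size factors, members lower numbered 15 in D14 of U251, 54 in D28 of U251, 1 in D14 of U87, 9 in D28WO vs D28 in U87 and 42 in D3 of U87. Here members higher numbered 1 in D28 of U251, 19 in D28WO vs D28 in U251, 1 in D28WO of U251, 1 in D3 of U251 and 1 in D28WO vs D28 in U87. Here the nuclear median was -0.15 in D14 of U251, -0.26 in D28 of U251, 0.12 in D28WO vs D28 in U251, -0.28 in D3 of U251, -0.34 in D14 of U87, -0.47 in D28 of U87, -0.67 in D28WO of U87 and -0.47 in D3 of U87. Here the mitochondrial median was -0.20 in D14 of U87, -0.62 in D28WO of U87 and -0.30 in D3 of U87. Fitting only the 2 compared groups, members lower numbered 2 in D14 of U251, 0 in D14 of U87, 7 in D28 of U87, 10 in D28WO vs D28 in U87 and 2 in D3 of U87. Here members higher numbered 1 in D3 of U251 and 1 in D28WO vs D28 in U87. Centred on genes of like length and abundance (a setting chosen after seeing the data), members lower numbered 3 in D14 of U251, 16 in D28WO vs D28 in U251, 0 in D14 of U87, 13 in D28 of U87, 35 in D28WO of U87 and 9 in D3 of U87. Here members higher numbered 5 in D28 of U251, 5 in D3 of U251, 1 in D14 of U87 and 2 in D28WO of U87. Here the nuclear median was -0.0053 in D14 of U251, -0.0032 in D28WO vs D28 in U251, -0.086 in D3 of U251, -0.041 in D14 of U87, -0.084 in D28 of U87, -0.18 in D28WO of U87 and -0.11 in D3 of U87. Here the mitochondrial median was 0.20 in D14 of U87, 0.12 in D28 of U87, -0.016 in D28WO of U87 and 0.17 in D3 of U87. Here the sign turned for COX6A1 in D28 of U87 (0.011), NDUFS8 in D28 of U87 (0.087), ATP5MC2 in D28WO of U87 (0.086), MT-ND6 in D28WO of U87 (0.0065), NDUFA13 in D28WO of U87 (0.055), NDUFS8 in D28WO of U87 (0.13), NDUFV2 in D28WO of U87 (0.058) and NDUFS8 in D3 of U87 (0.027). With no filter, members lower numbered 0 in D14 of U87. Here members higher numbered 0 in D28WO vs D28 in U87. With a filter at a mean of 5 TPM, members higher numbered 4 in D3 of U251. With the replicate block, members higher numbered 1 in D28WO vs D28 in U87. Here the mitochondrial median was 0.053 in D14 of U87. With array weights, members higher numbered 15 in D28WO vs D28 in U251 and 4 in D3 of U251.

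Leaving out each library in turn gave -0.084 to -0.015 for the nuclear median in D14 of U251, 0 to 5 for members lower in D14 of U251, -0.0046 to 0.045 for the nuclear median in D28WO vs D28 in U251, 5 to 8 for members higher in D28WO vs D28 in U251, 1 to 3 for members higher in D28WO of U251 and 18 to 31 for members lower in D28WO of U251. In the same way it gave 1 to 3 for members higher in D3 of U251, 0 to 3 for members lower in D14 of U87, 0 to 1 for members higher in D28 of U87, 18 to 48 for members lower in D28 of U87, 0 to 1 for members higher in D28WO vs D28 in U87, 8 to 18 for members lower in D28WO vs D28 in U87 and 5 to 30 for members lower in D3 of U87.

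The mitochondrial median against Untreated ranged from -0.37 (without Untreated replicate 1) to 0.091 (without Untreated replicate 2) for D14 of U251, -0.62 (without Untreated replicate 1) to -0.21 (without Untreated replicate 2) for D28 of U251, -0.68 (without Untreated replicate 1) to -0.28 (without Untreated replicate 2) for D28WO of U251, -0.37 (without Untreated replicate 1) to 0.058 (without Untreated replicate 2) for D3 of U251 and -0.34 (without D28 replicate 1) to 0.013 (without D28 replicate 3) for D28 of U87.

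Same-numbered libraries of different groups did not deviate together, with correlations from -0.058 to 0.048 and 0 over 0.1, so the numbers are not taken as pairs. With the replicate block 70 members were lower in D28WO of U87 and 33 in D28WO of U251.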

Other observations

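The groups of genes around the chain did not all carry the counts of D28WO at the earlier times. In U251 the mitochondrial ribosomal proteins numbered 14 lower and 12 higher at D3, 3 lower and 4 higher at D14 and 14 lower and 14 higher at D28, and in the libraries labelled D28WO 9 lower and 20 higher, of 78 measured. Of all genes in U251 16%, 7.31%, 14.7% and 13.4% were lower and 24.9%, 13.8%, 25.9% and 14.3% higher in these groups, in turn. The assembly factors of U251 numbered 14 lower and 15 higher at D3, 3 lower and 8 higher at D14 and 8 lower and 15 higher at D28, of 55. In U87 the assembly factors numbered 4 lower and 3 higher at D3 and 6 lower and 4 higher at D28, where 4.28% and 6.55% of all genes were lower and 12.4% and 17.2% higher. The citrate cycle enzymes, 14 measured, numbered 1 lower and 0 higher at D3 and 4 lower and 0 higher at D28 of U87, and 5 lower and 3 higher and 6 lower and 1 higher in U251.

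The larger mitochondrial ribosomal RNA, MT-RNR2, was at 453, 660.1 and 599 TPM in the Untreated libraries of U251, 348, 357 and 324 TPM at D14 and 295, 393 and 387 TPM at D28, and was lower by the limma test at both times (log2 fold changes -0.71 and -0.66, adjusted p = 0.00384 and 0.0028). D14 was the group of U251 in which 0 of the 12 mitochondrial mRNAs passed the test.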
